A study of Mus with 2 samples.

Results

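The genes that make, carry and break down retinoic acid were examined in mouse macrophages treated with an agonist of the farnesoid X receptor (FXR). There were 9 such genes of 20144 genes with a matched array probe, and each had 1 probe read at 1 spot per array. They were chosen by name for their role, with earlier results of these data known. Rdh10, Aldh1a1, Aldh1a2 and Aldh1a3 belong to synthesis, Dhrs3 to the reverse reduction, Cyp26a1 and Cyp26b1 to breakdown, Crabp2 to binding in the cell and Stra6 to uptake of the precursor. Bone marrow derived macrophages (BMDMs) came from male C57BL6/J mice and were grown for 7 d with M-CSF at 10 ng/mL, the growth factor that drives bone marrow cells to macrophages. Both cultures then received IL-4 at 10 ng/mL for 24 h, which induces the M2 state, together with the solvent DMSO in one culture and 10 µM of GW4064, a synthetic FXR agonist, in the other. Neither the labels nor the methods say whether the cells of both cultures came from 1 mouse or several, and each condition was measured on 1 array. The design thus gives neither a replicate error nor a p-value, and the precision of what follows is limited by having 1 array per condition.

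Retinoic acid is made from retinol, the circulating form of vitamin A. Retinol is first oxidised to retinaldehyde in a reversible step, and retinaldehyde is then oxidised to retinoic acid in a step that cannot be reversed. Retinoic acid acts in the nucleus through the retinoic acid receptors, which form pairs with retinoid X receptors, and it is cleared by cytochrome P450 enzymes of the CYP26 family. Several genes of the pathway, CYP26 genes among them, are themselves induced by retinoic acid in many cells. In the immune system the pathway is best known from gut dendritic cells and some macrophages, which make retinoic acid and thereby shape lymphocyte homing and tolerance.

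Cyp26b1, an enzyme of breakdown, was at least 14.2-fold higher with GW4064 in the scanner software's background-subtracted signals. After another background correction Cyp26b1 was 3.39-fold higher. Aldh1a2, an enzyme of synthesis, was 2.56-fold higher. No member was lower by 2-fold or more. Of the 9 genes, 6 were well above background on both arrays, Cyp26b1 on the GW4064 array alone, and Aldh1a3 and Cyp26a1 on neither. Of all 13533 genes measured, 2.04% lay at or beyond 2-fold on the higher side with GW4064, and 2.71% on the lower side. The 7 measured members had a median log2 difference of 0.22, against 0.0069 over all genes measured. This median is the value of 1 gene, Stra6, whose signals were close to the lowest that were well above background. It depended on the processing and was -0.083 after the other background correction. The arrays read RNA from whole cultures, so fewer cells of a type and less RNA per cell cannot be told apart in any value here.

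Signals below are the intensities of single spots after the scanner software had subtracted the background. The value after ± is the software's own error of that one spot. Differences are given as log2 of GW4064 over DMSO, after the 75th percentile of each array had been set to the same level. The SD given beside them is the median SD between repeat spots over the 40 probes of closest signal among those printed 10 times, and it holds the scatter within the slide only. The lowest signal that the software marked as well above background was 15.7 for DMSO and 15.1 for GW4064. This mark is set for each spot, and a probe without it is called dim.

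**Figure D1:**
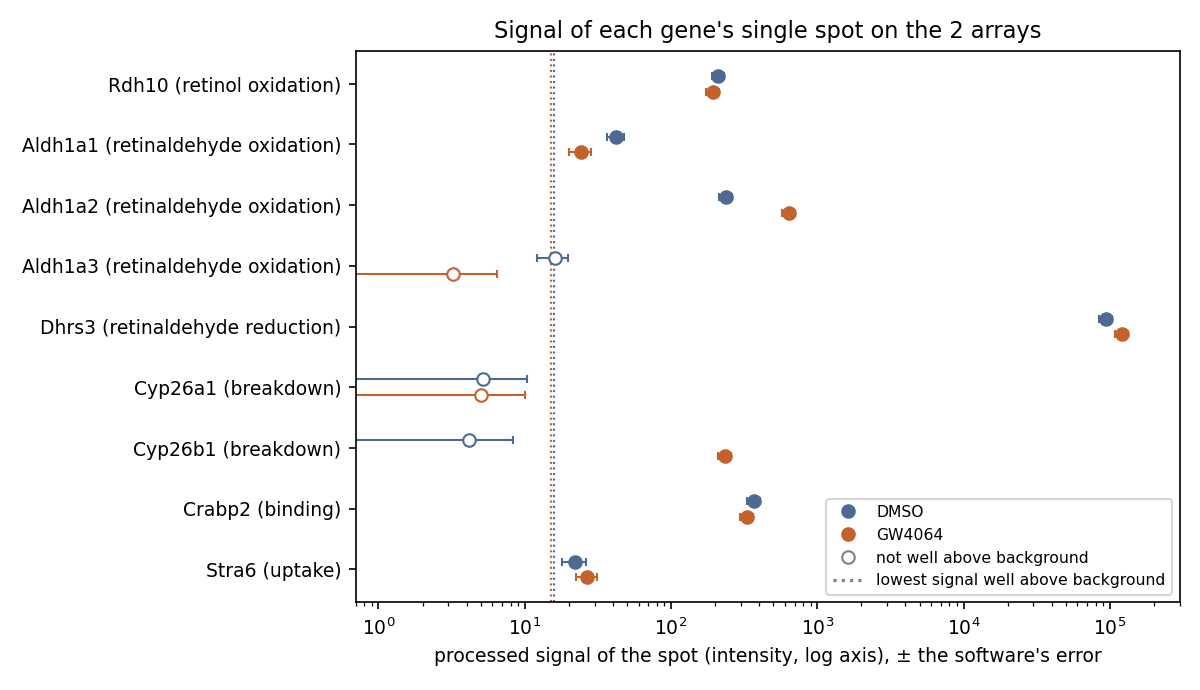
The plot of signals shows the spot of each gene on the DMSO array (blue) and the GW4064 array (orange), on a log axis of intensity. Bars give the software's error, cut off at the left edge, open points are not well above background, and dotted lines mark the lowest signals that are. Cyp26b1 moves from below these lines to 234, and Aldh1a2 from 237 to 635.

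Aldh1a2 encodes RALDH2, the retinaldehyde dehydrogenase that makes most of the retinoic acid of the embryo and is also made by dendritic cells and macrophages. Its signal was 237 ± 24.0 with DMSO and 635 ± 63.6 with GW4064. The log2 difference of 1.35 compares with an SD of 0.080 between repeat spots of like signal. The software's errors of both Aldh1a2 spots propagate to 0.21 on the log2 scale, more than that SD. Of the 12578 genes measured on both arrays, 52 had a larger increase, or 0.41%. Aldh1a2 was 2.06-fold to 2.56-fold higher under all 12 alternative settings. The settings for dim or marked spots, damaged areas and choice of probe could not change this value. Its single spot was unmarked, outside damaged areas and well above background on both arrays. The probe was matched to NM_009022.

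The other enzymes of synthesis did not share this change. Aldh1a1 encodes RALDH1, a close relative with the same reaction. Its signal was 42.0 ± 5.43 with DMSO and 24.2 ± 4.03 with GW4064, so that it was lower by a log2 difference of -0.86, or 1.82-fold, with an SD of 0.26 between repeat spots. The software's errors of both Aldh1a1 spots propagate to 0.30 on the log2 scale. The value of Aldh1a1 also depended on the processing. It was -0.31 after normexp, a model-based background correction, and -1.03, past 2-fold, under centring by the control RNA spiked into both samples. Within 300 µm of its spot, 11 other spots, including any marked by the software as unreliable, had an 8-fold or larger difference. Aldh1a3, which encodes RALDH3, had a signal of 16.0 ± 3.79 with DMSO and 3.23 ± 3.22 with GW4064. Neither was well above background, so no difference is given. At the spots' own values Aldh1a3 would be lower by a log2 difference of -2.37, and it counts as lower under the software's more lenient mark of a signal above background, which it passed on the DMSO array only.

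Rdh10 encodes the retinol dehydrogenase of the first, reversible step. Its signal was 210 ± 21.3 with DMSO and 194 ± 19.7 with GW4064, which gave a log2 difference of -0.18 beside an SD of 0.11. Dhrs3 encodes the enzyme that turns retinaldehyde back into retinol and so lowers the supply for synthesis. Its spot was bright on both arrays, with 94240 ± 9424 for DMSO and 120716 ± 12072 for GW4064. The log2 difference of 0.29 was above the SD of 0.069 between repeat spots, and it was 0.13 under spike-in centring. The software's errors of both spots propagate to 0.21 on the log2 scale for Rdh10, more than its difference, and to 0.20 for Dhrs3, less than its difference.

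Cyp26b1 and Cyp26a1 encode the enzymes that hydroxylate retinoic acid and thereby remove it. The signal of Cyp26b1 was 4.17 ± 4.15 with DMSO and 234 ± 23.7 with GW4064. Before any correction, the median intensity of the spot was 35.0 with DMSO against a local background of 10.0, and 248 with GW4064 against 19.0. Since the DMSO spot was not well above background, the log2 difference of 3.83 is a lower bound, taken against the lowest signal that was. That bound holds for the software's background-subtracted signals only. With each spot at its own value the difference would be 5.75. After the normexp correction, which adds a constant to every signal, it was 1.76, or 3.39-fold. Cyp26b1 was above 2-fold in the 11 settings that gave it a value, and it has none where only probes well above background on both arrays are kept. Cyp26a1 had signals of 5.16 ± 5.14 and 5.0 ± 4.97, neither of them well above background, and its level remains unknown on both arrays. The same held for the related Cyp26c1, at 3.66 and 3.47.

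Crabp2 encodes the cellular protein that carries retinoic acid to its receptor in the nucleus. Its signal was 366 ± 36.9 with DMSO and 331 ± 33.4 with GW4064, so that the log2 difference was -0.21 and the SD 0.080. It was -0.083 after the normexp correction and -0.38 under spike-in centring. The software's errors of both Crabp2 spots propagate to 0.21 on the log2 scale, about as large as the difference. Stra6 encodes the membrane receptor that takes up retinol from its carrier in blood. Its signals of 22.0 ± 4.18 and 26.8 ± 4.28 were close to the lowest that were well above background, and the log2 difference of 0.22 was below the SD of 0.31. After the normexp correction it was -0.18, so the direction of Stra6 was not settled.

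**Figure D2:**
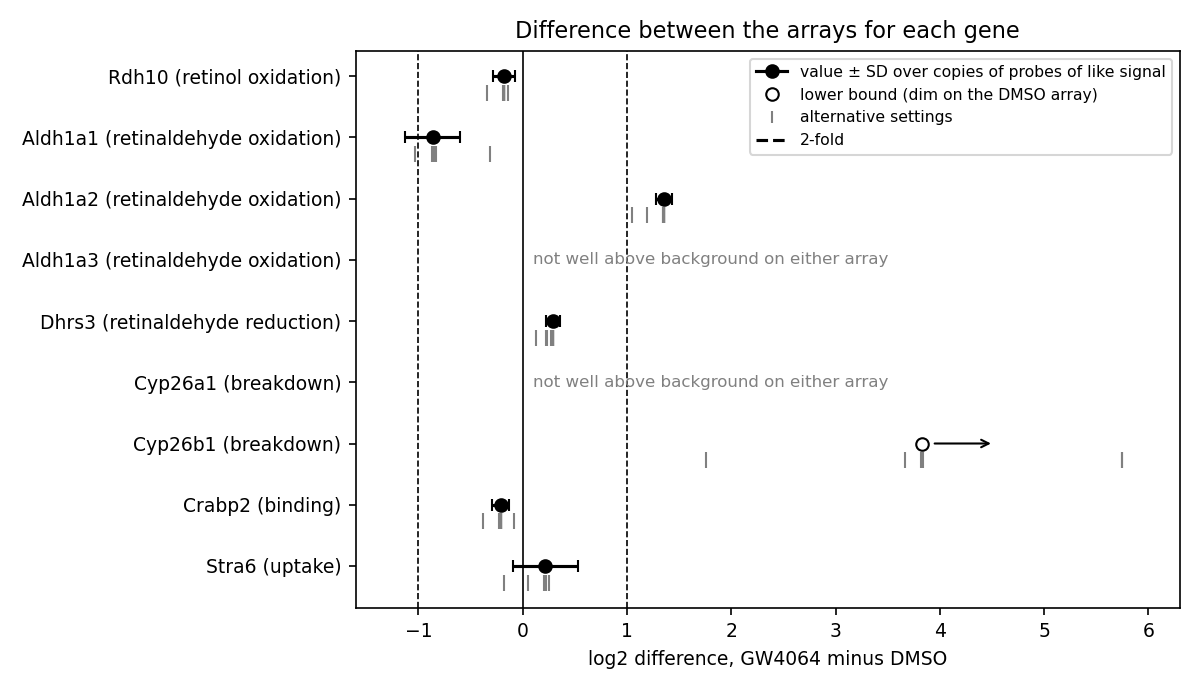
The plot of differences shows the log2 difference, GW4064 minus DMSO, of each gene, with bars of 1 SD between repeat spots of like signal. The open point with an arrow is the lower bound for Cyp26b1 in the software's signals. Grey ticks are the alternative settings, and dashed lines mark 2-fold. Aldh1a2 at 1.35 and Cyp26b1 at its bound of 3.83 lie beyond 2-fold, and the 5 other measured genes lie between -0.86 and 0.29.

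**Figure D3:**
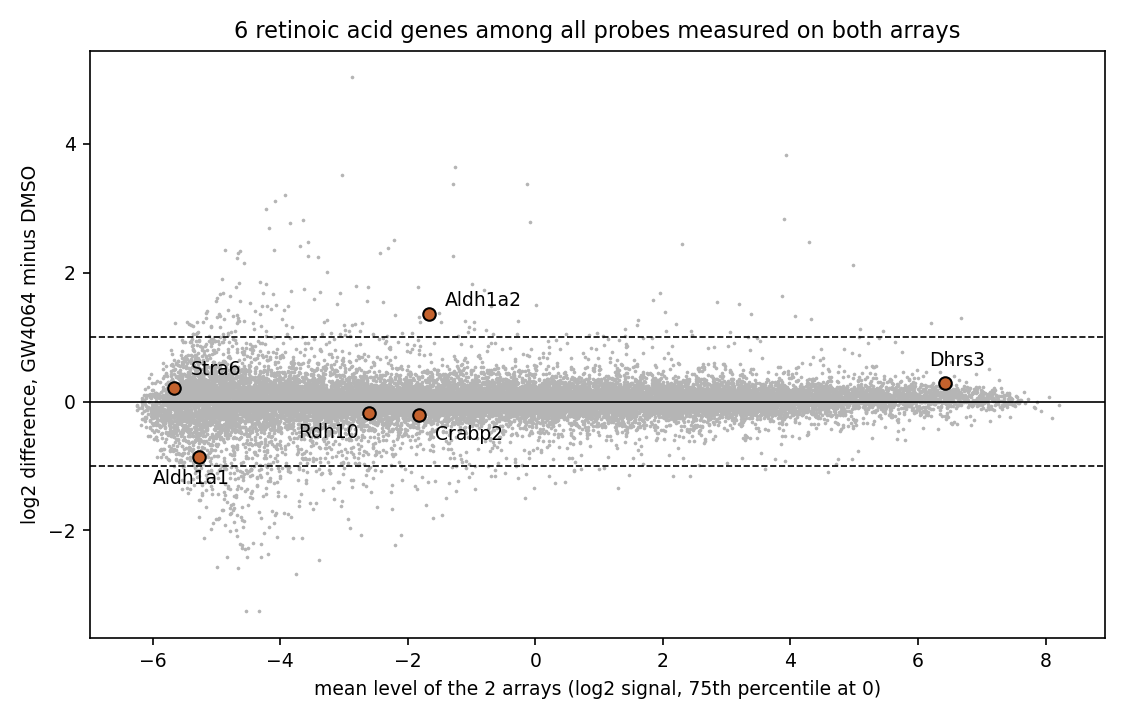
The plot of difference against level shows every probe well above background on both arrays in grey and the 6 members measured there in orange, with the mean level on the horizontal axis. The scatter widens towards low signals, where Aldh1a1 and Stra6 lie, while Aldh1a2 lies at a level with less scatter.

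Each member was read at a single spot, so the surface around the spot was examined as well. None of the 9 spots was marked by the software as uneven or saturated. Areas in which 2 or more other spots within 300 µm differed 8-fold or more are called damaged here and held 16.5% of all spots. The spots of Aldh1a1, Crabp2 and Stra6 lay in such areas, with 11, 4 and 2 such neighbours. The spots of Rdh10, Aldh1a2, Aldh1a3, Dhrs3, Cyp26a1 and Cyp26b1 had 0. These counts include spots that the software marked as unreliable, which are left out of the comparisons that follow. Dim spots among the unmarked neighbours were kept at their own values, so a median over them does not measure the surface alone. The median log2 difference of the unmarked neighbours was between -0.16 and -0.035 around all members. Around Cyp26b1 it was -0.035, and 0 of its 57 neighbours had a difference as large. Around Aldh1a2 it was -0.042, and 4 of its 58 neighbours had a larger increase. For Aldh1a1, 8 of 44 neighbours had a larger decrease. The part of the surface in the values of these 3 genes was not tested.

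**Figure D4:**
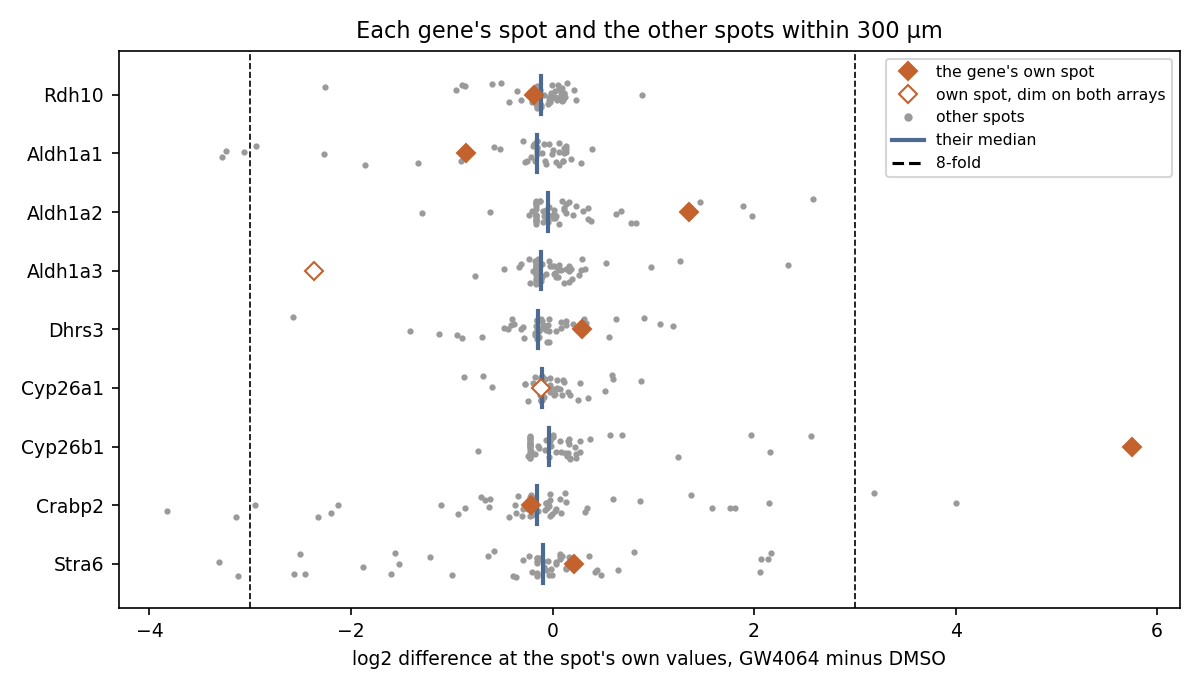
The plot of surroundings shows the log2 difference of each gene's own spot (diamond, open where dim on both arrays). Grey points are the unmarked spots within 300 µm, dim ones included, with their median as a bar and 8-fold as dashed lines. The spot of Cyp26b1 at 5.75 stands above all its neighbours and the dim spot of Aldh1a3 at -2.37 below all of its own, whereas the spot of Aldh1a1 lies within the range of its own.

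The neighbours on the chromosome were compared too, by the order of protein-coding genes in RefSeq. Of the 2 genes on either side of Cyp26b1, Zfp638 had a log2 difference of -0.034, Dysf of -0.79, Exoc6b of -0.034 and Spr of 0.20. None of them was 2-fold or more higher. Of those beside Aldh1a2, Polr2m had -0.032, and Lipc, Aqp9 and Myzap were too dim on both arrays. These genes were taken for their position after the differences of the members had been seen.

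The rest of the retinoid pathway was described with 45 further genes, of which 44 had a probe and 28 were measured. Of these 28 genes, 0 were 2-fold or more higher and 0 lower, beside 2.04% and 2.71% of all genes, shares at which a list of this length would hold few or none. There were 14 above and 14 below 0, and their median log2 difference was 0.0001. The retinol and retinaldehyde dehydrogenases had 12 measured genes between -0.23 for Aldh8a1 and 0.24 for Rdh12. Aldh1a7, a relative of Aldh1a1, was dim on both arrays, at 15.5 and 14.2. Genes of retinyl esters and carotenoids, in which vitamin A is stored or from which it is made, lay between -0.16 and 0.067 over 5 measured genes, and Lrat, the enzyme that stores retinol as ester, was not well above background.

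Rbp4, the carrier of retinol in blood, had signals of 498 and 542 and a difference of 0.058. Rbp7, a retinol binding protein, was dim at 3.60 with DMSO and had a signal of 23.9 with GW4064, at least 1.45-fold higher. Fabp5, which can carry retinoic acid to another nuclear receptor, was bright on both arrays, with 174430 and 169114, and differed by -0.11. Among other oxidases of retinoids, Cyp1b1 had signals of 675 and 385 and a log2 difference of -0.88, which passed 2-fold under spike-in centring, at -1.04, and in no other setting tried. The only spot of Crabp1, the relative of Crabp2, was marked by the software as unreliable for DMSO, with signals of 220 and 51.8, and was left out.

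Among the receptors of retinoic acid, Rarb was measured by 2 probes. Their signals were 28.8 and 3.43 with DMSO and 985 and 177 with GW4064, and the other 5 genes for retinoic acid and retinoid X receptors had log2 differences between -0.28 and 0.14. Genes known to respond to retinoic acid were taken as a list of 23, of which 15 were measured, with a median of 0.21. Of these, 4 were 2-fold or more higher and 0 lower, again beside 2.04% of all genes higher. Tgm2, which encodes a protein cross-linking enzyme, had 18376 and 10030 with DMSO and 83669 and 58681 with GW4064 on its probes, and both were over 4-fold higher. Cebpe, a transcription factor of granulocyte maturation, went from 107 to 586, a log2 difference of 2.39. Hic1, a transcriptional repressor, went from 63.0 to 199 on one probe, a difference of 1.59, whereas its second probe was dim on both arrays. Nr2f1, an orphan nuclear receptor, was at least 7.76-fold higher on one probe, with signals of 14.6 and 128, and dim on the other. Hoxb4, a developmental transcription factor, had a difference of 0.37, and Hoxa4, Hoxa5, Hoxb1 and Hoxb5 were not well above background. Tgm2 and Cebpe were known from earlier results to be high with GW4064 when the list was written, so their count supports nothing by itself.

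**Figure D5:**
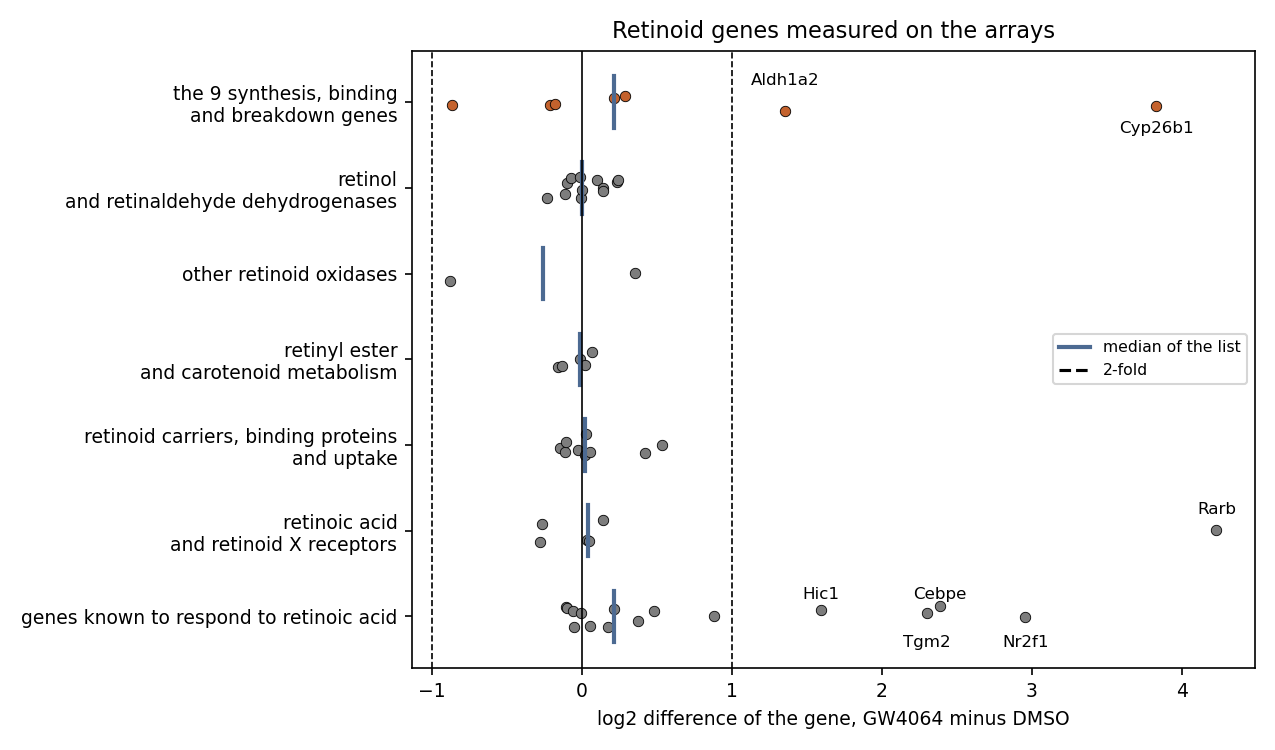
The plot of retinoid lists shows the log2 difference of each measured gene, GW4064 minus DMSO, in 7 groups of genes, with the median of each group as a bar and 2-fold as dashed lines. Genes beyond 2-fold are named, and dim probes enter at their bound, as for Cyp26b1. They lie among the synthesis and breakdown genes, the receptors and the genes that respond to retinoic acid, and the 4 groups of other pathway genes have none.

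The identity of the cells was checked on marker genes, since macrophages, dendritic cells and stromal cells can all make retinoic acid. All 8 macrophage markers with a probe, Adgre1 and Csf1r among them, were well above background on both arrays and lay between -0.42 and 0.13. The median of the 7 M2 markers, all measured, was 0.13. Of these, 1 was 2-fold or more higher and 0 lower, beside 2.04% and 2.71% of all genes. That one was Arg1, which went from 4875 to 72297, a log2 difference of 3.82, while the others lay between -0.41 for Pdcd1lg2 and 0.91 for Retnla. Of the 9 dendritic cell markers with a probe, 5 were measured, between -0.60 and 2.31, while Cd209a, Dpp4, Xcr1 and Clec9a were not well above background. The highest was Flt3, with 10.5 and 81.5 on a probe in a damaged area. Zbtb46, which defines conventional dendritic cells, had signals of 29.8 and 39.4 on its brighter probe, near the lowest that were well above background. The summed signal of the dendritic cell markers measured on both arrays was 12.7 with DMSO and 12.3 with GW4064, in multiples of the 75th percentile. Nearly all of it came from Batf3 and Irf4, whose spots lay in damaged areas, so the sum says little about the other dendritic cell markers. Other marker probes lay in such areas too, among them probes of Adgre1 and Csf1r.

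Most stromal markers and all measured neutrophil markers lay below 0, few of them by 2-fold or more. Of all 13533 genes measured, 6521 lay below 0 and 2.71% were lower by 2-fold or more. Of the 13 stromal markers with a probe, 12 were measured and 10 lay below 0, with 2 lower by 2-fold or more (Postn at -1.11 and Fbln2 at -1.27) and a median of -0.74, and their summed signal was 52.8 with DMSO and 38.8 with GW4064. Col1a2 had -0.99, from 10058 to 5296, while Pdgfra had 0.065 and Lum was not well above background. The 7 measured neutrophil markers lay between -0.94 and -0.32, 0 of them beyond 2-fold, with summed signals of 11.6 and 7.15. Of 7 lymphocyte markers 3 were measured, 2 of them lower by 2-fold or more, with a median of -1.31. Cd3e had 0.18, and Ms4a1 was at least 2.47-fold lower, with signals of 35.8 and 7.08. The probes of Klrb1c disagreed in size, one at least 12.1-fold lower and the other at -0.53 on a spot in a damaged area. The difference of Aldh1a1, -0.86, and that of Cyp1b1, -0.88, lay within the range of the stromal markers and within that of the neutrophil markers. The stromal range, from -1.27 to 0.065, was wide and also held the smaller differences of Rdh10 and Crabp2. The part of stromal cells or neutrophils in any of these values was not tested. FXR itself, Nr1h4, was dim on both arrays, at 3.46 and 3.24 on a spot in a damaged area. Its level thus remains unknown here. The paper reported Nr1h4 mRNA in BMDMs by real-time PCR. Of the liver and gut targets of FXR, Nr0b2 went from 22.5 to 45.5, a difference of 0.95 at a spot in a damaged area. Abcb11, from 58.5 to 19.5, and Slc51b, from 45.3 to 8.72, were at least 3.15-fold and 3.14-fold lower. Both had low signals, were dim with GW4064 and were read at 1 spot each. Fgf15, Slc51a and Fabp6 were not well above background.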

How the data were processed

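Values came from 1 Agilent 1-colour array per condition, both on 1 slide and in 1 scan at 5 µm per pixel, so neither could be tested as a batch. The deposited scanner files, made with Agilent Feature Extraction 10.7.1.1 per the labels, hold the intensity of each spot after background subtraction and detrending, without scaling between arrays. A log2 table by the authors, deposited beside them, was shifted per array and centred per probe on an unstated baseline. Its differences equalled those computed here apart from a constant of 0.0022. The description of the GW4064 sample repeats that of the DMSO sample, and its treatment label was followed.

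Each array's log2 signal was set to 0 at its 75th percentile (DMSO 1209, GW4064 1265). Marked spots (399 and 207 of 43020) were left out. A probe dim on one array took, on that array, its own signal or the lowest signal well above background, whichever was larger. The resulting bounds, written as at least, hold for the software's background-subtracted signals only. A probe dim on both arrays gave no difference. A repeated probe counted as above background where most or an equal share of its spots did. A gene's value is the mean of its measured probes. Names came from RefSeq (GRCm38.p6), which matched 26581 of 39429 probes. The array design uses another build, so no coordinates are given, and no sequences were printed or searched. No test was possible with 1 array per condition, and the threshold was 2-fold. All 9 members, list genes beyond 2-fold, Rbp4, close relatives of members and defining markers were to be named. Others named here (Fabp5, Rbp7, Cyp1b1, ends of ranges, Hox genes, markers beyond 2-fold or not detected) were chosen after their values were seen. Members and lists were chosen with earlier results of these data known. Alternatives covered the normalization, the background correction, the filters on dim and marked spots, damaged areas, the deposited table, the choice of probe and the threshold. Some genes that the rule would name are not reported here. The functions were tested on simulated data. Calculations ran in R 4.3.3 with limma 3.58.1, and in Python 3.11.15 with pandas 2.3.3, numpy 2.4.6, statsmodels 0.14.6, scipy 1.17.1 and matplotlib 3.10.9.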

Additional observations from a re-analysis of the deposited data

How the results depend on the processing

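The processing was varied in 12 ways, besides thresholds of 1.5-fold and 4-fold. Aldh1a2 was 2-fold or more higher in all 12 and Cyp26b1 in the 11 that gave it a value. For Aldh1a2, the settings for dim or marked spots, damaged areas and choice of probe could not change the value. The number of members 2-fold or more higher was 2 and became 1 where only probes well above background on both arrays were kept, and 1 at 4-fold. The number lower was 0 and became 1 (Aldh1a1) when centred on the spike-in RNA and at 1.5-fold, and 1 (Aldh1a3) without a filter on dim probes and with the lenient background mark. Of the other pathway genes, 1 was lower under spike-in centring and at 1.5-fold (Cyp1b1) and 1 with marked spots kept (Crabp1). In addition, 1 was higher without a filter and with the lenient mark (Rbp7). Of all genes measured, 3.67% were lower under spike-in centring and 3.29% with marked spots kept. Without a filter 3.48% were higher and 3.82% lower, and with the lenient mark 4.83% and 5.24%. With only probes above background on both arrays, 0.85% were higher. Shares of all genes at 1.5-fold and 4-fold are not given here, so the counts at these thresholds stand without a comparison. The median of the members, 0.22, was -0.083 after normexp, 0.82 without damaged areas (4 members left), -0.11 without a filter (9 members), and 0.018 both with the lenient mark and with only probes above background on both arrays.

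Over all genes, 276 were 2-fold or more higher and 367 lower. The counts were 72 and 64 after normexp, 168 and 202 without damaged areas, 698 and 767 without a filter, 784 and 851 with the lenient mark and 164 lower and 107 higher with only probes above background on both arrays. Centring on the spike-in RNA moved the median probe to -0.15 and gave 220 and 496, so that 30.7% of the genes beyond 2-fold were higher against 42.9%, and 52.9% were higher after normexp. No paired analysis was possible because a single array was hybridised for each treatment. Signal over background limits Aldh1a3, Cyp26a1, Stra6, Aldh1a1 (-0.31 after normexp) and the size of Cyp26b1. The difference of Cyp26b1 was 1.76 after normexp and 5.75 without a filter, on either side of its bound. That bound of 3.83 holds for the software's background-subtracted signals only.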
